A study of Homo sapiens with 2 samples.

Results

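The 41 genes described here are 18 genes of the transcriptional response to low oxygen and 23 genes of glucose uptake, glycolysis and lactate handling, taken by their symbols out of the 33538 genes counted in each library. All of the 41 symbols were found once. They were measured by single-cell RNA-seq in human embryonic stem cells (hESCs) given BMP4, a ligand that drives hESCs out of pluripotency, at 50 ng/ml for 48 h in mTeSR1 medium. The WT library came from the H1 line. The GATA3 KO library came from KO-GATA3-06, 1 clone derived from a single H1 clone that carries an inducible Cas9 cassette at the AAVS1 safe-harbour site, so genotype, clone and cassette cannot be told apart. The duration given for WT differs within its labels, where the title and the duration field give 48 h and the protocol text gives 1 h. There was 1 library per group and no replicate, so no difference between the libraries could be tested. Every interval below is a 95% counting interval of UMIs (unique molecular identifiers, 1 per captured molecule) and says nothing of the spread between cultures.

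In normal oxygen the EGLN enzymes hydroxylate the HIF alpha subunits, which VHL then marks for destruction. When oxygen is short, HIF escapes this and binds short elements (ACGTG or GCGTG) beside its target genes, among them genes for glucose import, glycolysis, lactate export and the removal of mitochondria, as well as EGLN3 and ANKRD37, which are part of the response itself. Pluripotent stem cells rely heavily on glycolysis, and several genes of the hypoxia response, ADM in particular, also answer to other signals.

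Before the members are described, a few facts of the 2 libraries bear on them. After the study's limits on cells (at most 7500 detected genes and at most 25% mitochondrial counts) there were 2519 of 3802 WT cells with 99587274 UMIs and 4450 of 6221 GATA3 KO cells with 175285931 UMIs, and 8 cell barcodes occurred in both libraries. Levels are given per 1000000 UMIs (CPM) over the kept cells, counted at the 3′ end, so they do not scale with transcript length. All 7 pluripotency markers were above 20 CPM in both libraries. The libraries differed in the makeup of their cells: the 5 primitive streak markers were at 2.04 to 9.30% of their WT level in GATA3 KO (MIXL1 was at 136 CPM in WT and 4.0 CPM in GATA3 KO), whereas SOX2 was at 150 CPM in WT and 389 CPM in GATA3 KO. In the other marker lists, calls were limited to genes of at least 20 CPM. TFAP2A (1 of 6 amnion or trophectoderm markers) and IRX2 (1 of 4 early neural markers) were at least 1.5-fold higher in GATA3 KO. So were MKI67 (1 of 5 cell cycle genes) and POU5F1 and SOX2 (2 of 7 pluripotency markers). The other pluripotency markers were under the limit and went both ways. LIN28A and L1TD1 were higher in GATA3 KO. NANOG (75.6 CPM in WT and 55.7 CPM in GATA3 KO), TDGF1 (440 and 327 CPM) and DPPA4 (270 and 247 CPM) were lower. Below 20 CPM, GATA2 was at 2.02 CPM in WT and 7.75 CPM in GATA3 KO. KRT7 (4.22 and 8.59 CPM) and FEZF1 (0.934 and 3.34 CPM) were also higher in GATA3 KO, while ISL1 was lower (4.65 and 2.72 CPM). None of the 4 endoderm markers reached 20 CPM, and all 4 were lower in GATA3 KO, SOX17 at 10.6 and 0.160 CPM. The GATA3 transcript was at 12.7 CPM in WT and 10.9 CPM in GATA3 KO. A knockout need not remove the transcript, so this level did not by itself check the labels.

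Among the hypoxia genes of at least 20 CPM, those that differed most between the libraries were ADM, BNIP3 and P4HA1. Their promoters are shown because these 3 genes moved in different directions although they are grouped as targets of 1 pathway. Sequences are the longest stretch free of annotated exons in the 250 bases before the RefSeq start site (GRCh38.p14, strand of the gene, 5′ to 3′). They end 1, 45 and 109 bases before that site for ADM, BNIP3 and P4HA1. The HIF core letters ACGTG or GCGTG on either strand are in capitals. The ADM stretch is chr11:10304878-10305072 (plus strand, 195 bases), the BNIP3 stretch is chr10:131981968-131982173 (minus strand, 206 bases) and the P4HA1 stretch is chr10:73096975-73097116 (minus strand, 142 bases).
ADM: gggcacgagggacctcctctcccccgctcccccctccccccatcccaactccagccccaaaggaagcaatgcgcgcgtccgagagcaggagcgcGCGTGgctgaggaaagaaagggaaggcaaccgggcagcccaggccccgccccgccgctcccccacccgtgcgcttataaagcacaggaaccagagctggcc
BNIP3: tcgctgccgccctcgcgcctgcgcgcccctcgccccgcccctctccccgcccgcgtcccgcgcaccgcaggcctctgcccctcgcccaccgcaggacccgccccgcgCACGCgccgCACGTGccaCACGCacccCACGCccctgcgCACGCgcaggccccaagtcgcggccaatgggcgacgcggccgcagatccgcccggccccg
P4HA1: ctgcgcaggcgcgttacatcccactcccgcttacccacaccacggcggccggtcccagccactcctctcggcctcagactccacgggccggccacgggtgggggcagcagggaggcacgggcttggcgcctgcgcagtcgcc
The ADM stretch holds 1 GCGTG and no ACGTG. The BNIP3 stretch holds 4 GCGTG, and its 2 ACGTG matches overlap, since CACGTG reads the same on both strands. The P4HA1 stretch holds neither, although the full 250 bases before its start site hold 1 ACGTG, 86 to 82 bases before the start site and within an annotated exon. In the 250 bases before the start site of all 35116 promoters 18.5% hold ACGTG, 32.2% hold GCGTG and 43.2% hold either, and of 22 promoters listed for 14 of the hypoxia genes 17 hold either. Of 46 promoters listed for 21 of the glycolysis genes 25 hold either. A match of 5 letters describes the sequence and is not a mapped site.

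Between the libraries, 25 of the 41 genes reached 20 CPM in at least one library, and the other 16 were below. Among the 25, 9 genes were at least 1.5-fold higher in GATA3 KO and 3 were at least 1.5-fold lower, on the scale of log2(CPM + 1). Of all 5529 genes at 20 CPM or more, 13.5% were this much higher and 7.85% this much lower, with a median log2 ratio of 0.07. The 2 groups of genes differed in composition: 8 of the 18 glycolysis genes past 20 CPM were higher and 1 was lower, whereas of the 7 hypoxia genes past 20 CPM 1 was higher and 2 were lower. At a 2-fold limit only ADM was higher and only BNIP3 was lower, against 2.41% and 1.99% of all genes. The median log2 ratio was 0.31 over the 23 glycolysis genes and -0.09 over the 18 hypoxia genes, below and above 20 CPM alike.

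**Figure D1:**
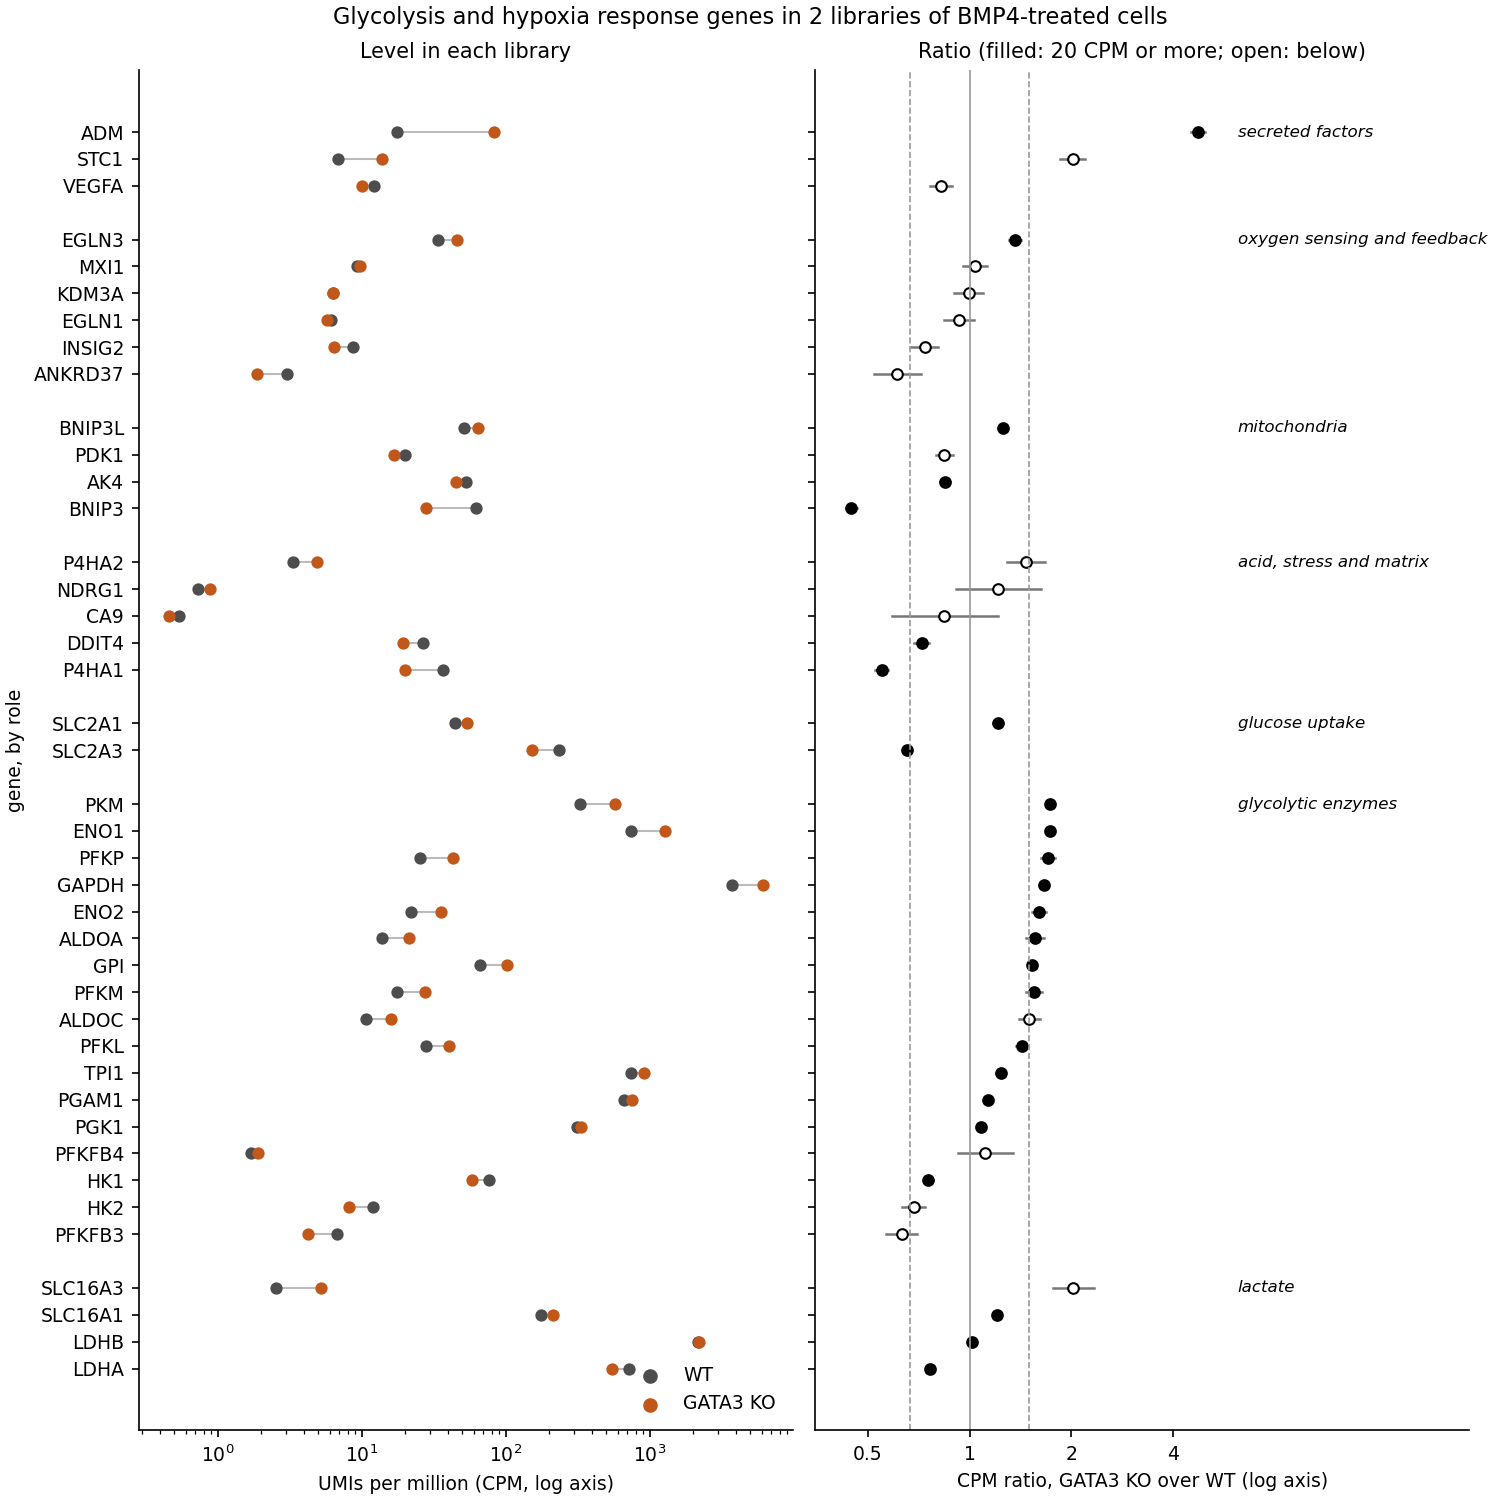
Level of each of the 41 genes in the WT (grey) and GATA3 KO (orange) libraries in CPM on a log axis (left), and the CPM ratio of GATA3 KO over WT on a log axis with its 95% counting interval (right), by role. Dashed lines mark 1.5-fold, and open points are genes below 20 CPM in both libraries. ADM stands farthest to the right at 4.73-fold, BNIP3 farthest to the left at 0.447, and 8 of the 17 glycolytic enzymes lie beyond the right line as filled points.

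Secreted factors. ADM (ENSG00000148926, chr11:10305073-10307397, plus strand) encodes adrenomedullin, a secreted vasodilator peptide. It was at 17.5 CPM in WT (16.7 to 18.3) and 82.7 CPM in GATA3 KO (81.4 to 84.1), 4.73-fold higher (4.50 to 4.97), the highest ratio of all 5529 genes. STC1, a secreted glycoprotein of calcium and phosphate balance, was low in both libraries, at 6.86 CPM in WT and 13.8 CPM in GATA3 KO (2.02-fold, 1.85 to 2.20). VEGFA, the main angiogenic growth factor and a textbook HIF target, went the other way, from 12.2 CPM in WT to 10.0 CPM in GATA3 KO (0.825 of WT, 0.766 to 0.888). Of the 3 secreted factors, 2 thus had the higher level in GATA3 KO, and only ADM was past 20 CPM.

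ADM signals through the receptor CALCRL with RAMP2 or RAMP3. RAMP2 was at 15.4 CPM in WT and 19.3 CPM in GATA3 KO. CALCRL, RAMP1 and RAMP3 were at 0.402 to 1.38 CPM, and the related ligand gene ADM2 was at 2.17 and 3.18 CPM. None of these 5 genes reached 20 CPM.

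Oxygen sensing and feedback. None of these 6 genes passed the 1.5-fold limit, and only EGLN3, a HIF-induced prolyl hydroxylase, reached 20 CPM. EGLN3 was at 33.7 CPM in WT and 45.7 CPM in GATA3 KO (1.36-fold, 1.31 to 1.42). EGLN1, the main oxygen sensor, was at 6.15 and 5.72 CPM, a difference within counting error (0.9302 of WT, 0.840 to 1.03). ANKRD37, a small HIF target used in hypoxia signatures, had the lowest ratio of the role at 0.611 (0.521 to 0.717), from 3.05 to 1.87 CPM. The other 3 genes, MXI1 (a MYC antagonist), INSIG2 (a brake on sterol synthesis) and KDM3A (a histone demethylase), had ratios between 0.737 and 1.04.

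Upstream of these genes, HIF1A itself was at 104 CPM in WT and 87.8 CPM in GATA3 KO, a log2 ratio of -0.25. EPAS1, which encodes the HIF-2 alpha subunit, was below 1 CPM in both libraries, and VHL was at 19.3 and 18.8 CPM. Of the 12 oxygen sensing genes outside the 41, none of the 5 past 20 CPM was called in either direction, ELOC (a subunit of the VHL ligase) having the lowest log2 ratio at -0.58. HIF is regulated mainly as a protein, which was not measured.

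Mitochondria. BNIP3 (ENSG00000176171, chr10:131967684-131981967, minus strand), which encodes a mitochondrial outer membrane protein that recruits the autophagy machinery, was at 62.3 CPM in WT (60.8 to 63.9) and 27.9 CPM in GATA3 KO (27.1 to 28.6). This was 0.447 of the WT level (0.430 to 0.464). Its paralog BNIP3L, which has a like function, went the other way, from 51.5 to 64.5 CPM (1.25-fold, 1.21 to 1.29). Of the UMIs of the pair, BNIP3 held 54.8% in WT (53.9 to 55.7) and 30.2% in GATA3 KO (29.5 to 30.9), so that BNIP3L became the more abundant of the pair. AK4, a mitochondrial adenylate kinase, was at 53.0 and 44.8 CPM, and PDK1, the kinase that holds back pyruvate dehydrogenase, at 19.9 and 16.7 CPM, neither past 1.5-fold.

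Acid, stress and matrix. P4HA1 (ENSG00000122884, chr10:73007217-73096974, minus strand), the catalytic subunit of collagen prolyl 4-hydroxylase, was at 36.6 CPM in WT (35.4 to 37.8) and 20.1 CPM in GATA3 KO (19.4 to 20.8), 0.550 of WT (0.525 to 0.576). Its paralog P4HA2 was at 3.33 and 4.89 CPM, with the highest ratio of the role at 1.47 (1.29 to 1.67), and the share of P4HA1 in the pair was 91.6% in WT and 80.4% in GATA3 KO. DDIT4, an inhibitor of mTORC1 that answers to hypoxia and to other stresses, was at 26.7 and 19.3 CPM (0.722 of WT, 0.686 to 0.760). CA9 and NDRG1, the genes most often used to mark hypoxic cells, were below 1 CPM in both libraries. CA9, carbonic anhydrase 9, had 54 UMIs in WT (0.542 CPM) and 80 in GATA3 KO (0.456 CPM), and NDRG1 had 73 and 156 UMIs (0.733 and 0.890 CPM), both within counting error of no difference.

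Summed over all 18 hypoxia genes, the share of the library's UMIs was 0.0358% in WT and 0.0382% in GATA3 KO (log2 ratio 0.09, 0.07 to 0.11). ADM held 4.88% of the group's UMIs in WT and 21.7% in GATA3 KO. Without ADM, a sum taken after the values were seen, the share was 0.0341% in WT and 0.0299% in GATA3 KO, and the log2 ratio turned to -0.19 (-0.21 to -0.17).

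Glucose uptake. The 2 glucose transporters went in opposite directions. SLC2A3 (GLUT3; ENSG00000059804, chr12:7919230-8019007, minus strand), the high-affinity transporter, was at 234 CPM in WT and 153 CPM in GATA3 KO (0.654 of WT, 0.642 to 0.665), just past the 1.5-fold limit. SLC2A1 (GLUT1), the widely expressed basal transporter and, like SLC2A3, a known HIF target, was at 44.2 and 53.7 CPM (1.21-fold, 1.17 to 1.26), and its share of the pair was 15.9% in WT and 25.99% in GATA3 KO. SLC2A3 is taken up again with the cell states, since its level differed more between these than between the libraries.

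Glycolytic enzymes. Of the 17 enzyme genes 13 were past 20 CPM, 8 of these were at least 1.5-fold higher in GATA3 KO and none was lower. Over all deposited cells, GPI, PFKM and ENO2 were under 1.5-fold (log2 ratios of 0.49, 0.49 and 0.58), and 6 members in place of 9 were called higher, or 7 with median-of-ratios size factors. The first steps of the pathway did not share this: the hexokinases, which trap glucose in the cell, were lower in GATA3 KO, HK1 at 76.7 and 58.0 CPM and HK2 at 12.0 and 8.23 CPM (ratios of 0.756 and 0.684). PFKFB3, whose product makes the activator of phosphofructokinase, was lowest among the enzymes at 0.630 of WT (0.567 to 0.700), from 6.76 to 4.26 CPM, and PFKFB4 was below 2 CPM in both. For the genes of the steps after hexokinase, these 2 regulators aside, every ratio was above 1.

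GPI, which makes fructose 6-phosphate, was at 66.3 CPM in WT and 101 CPM in GATA3 KO (1.53-fold, 1.49 to 1.57). The phosphofructokinase genes, whose products commit sugar to glycolysis, were all higher: PFKP at 25.3 and 43.1 CPM (1.71-fold), PFKM at 17.7 and 27.4 CPM (1.55-fold) and PFKL at 28.1 and 40.2 CPM (1.43-fold, under the limit). The aldolase gene ALDOA was at 13.7 and 21.4 CPM (1.56-fold, 1.47 to 1.66) and ALDOC at 10.7 and 16.1 CPM. ALDOA overlaps the annotated gene AC093512.2 on the same strand, and reads that fit both are not counted for either, so its level is uncertain. GPI, PFKP, ENO2, ALDOC, PGK1, PFKFB4, SLC16A3 and the hypoxia gene EGLN3 also overlap another gene on their own strand.

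In the lower part of the pathway the enzymes split. GAPDH (ENSG00000111640, chr12:6534512-6538374, plus strand), the oxidising step and a common reference gene, was at 3704 CPM in WT and 6137 CPM in GATA3 KO (1.66-fold, 1.65 to 1.66). ENO1 (ENSG00000074800, chr1:8861000-8879190, minus strand), an enolase, was at 744 and 1283 CPM (1.72-fold, 1.71 to 1.74), and ENO2 at 22.1 and 35.4 CPM (1.60-fold, 1.53 to 1.68). PKM (ENSG00000067225, chr15:72199029-72231819, minus strand), the pyruvate kinase, was at 331 and 571 CPM, the highest ratio among the enzymes at 1.73 (1.71 to 1.75).

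TPI1, PGK1 and PGAM1, which work between aldolase and enolase, were close to level, at 1.24-fold, 1.08-fold and 1.13-fold. The genes of neighbouring steps thus had unlike ratios. GAPDH, PGK1, TPI1, PGAM1, ENO1, PKM and the lactate dehydrogenases have near-identical pseudogene copies that can take up or lose shared reads, so the levels of these genes relative to one another are uncertain.

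Lactate. Of these 4 genes, none was called. LDHA, the HIF-responsive lactate dehydrogenase subunit, was lower in GATA3 KO, at 718 CPM in WT and 549 CPM in GATA3 KO (0.765 of WT, 0.757 to 0.772). LDHB, the subunit of oxidative tissues, was at 2156 and 2189 CPM, and LDHA held 24.99% of the UMIs of the pair in WT and 20.1% in GATA3 KO. SLC16A1 (MCT1), a lactate and pyruvate carrier, was at 176 and 212 CPM. SLC16A3 (MCT4), the hypoxia-linked exporter, was at 2.56 and 5.19 CPM, the highest ratio of the role at 2.03 (1.76 to 2.34), far below 20 CPM. Its direction differed between cell states, as given below.

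The glycolysis genes together took 1.01% of the UMIs in WT and 1.35% in GATA3 KO, a log2 ratio of 0.42. GAPDH alone held 36.7% of the group's UMIs in WT and 45.4% in GATA3 KO. Without GAPDH, again a sum taken after the values were seen, the shares were 0.640% and 0.737% and the log2 ratio 0.20. Among 22 other genes of sugar and pyruvate handling, 9 were past 20 CPM. Of these, PGD, an enzyme of the pentose phosphate pathway (85.2 and 138 CPM), was at least 1.5-fold higher in GATA3 KO, while PGM1, phosphoglucomutase of glycogen metabolism (115 and 43.4 CPM), and PDHB, a subunit of pyruvate dehydrogenase (253 and 140 CPM), were at least 1.5-fold lower.

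The summed shares were then taken cell by cell. For this, each kept cell with at least 10000 UMIs was thinned to 10000 UMIs, which left 2173 WT and 4038 GATA3 KO cells and set aside 346 and 412. The glycolysis share had a median of 1.00% in WT cells (5th to 95th percentile 0.76 to 1.28) and 1.34% in GATA3 KO cells (1.06 to 1.71). Of the GATA3 KO cells, 97.2% lay above the WT median, and 78.6% did without GAPDH. The 5th percentile of GATA3 KO cells thus lay above the WT median. The hypoxia share was 0.03% at the median in WT and 0.04% in GATA3 KO, which is 3 and 4 UMIs per thinned cell, and the 5th to 95th percentiles were 0.01 to 0.08% in both.

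**Figure D2:**
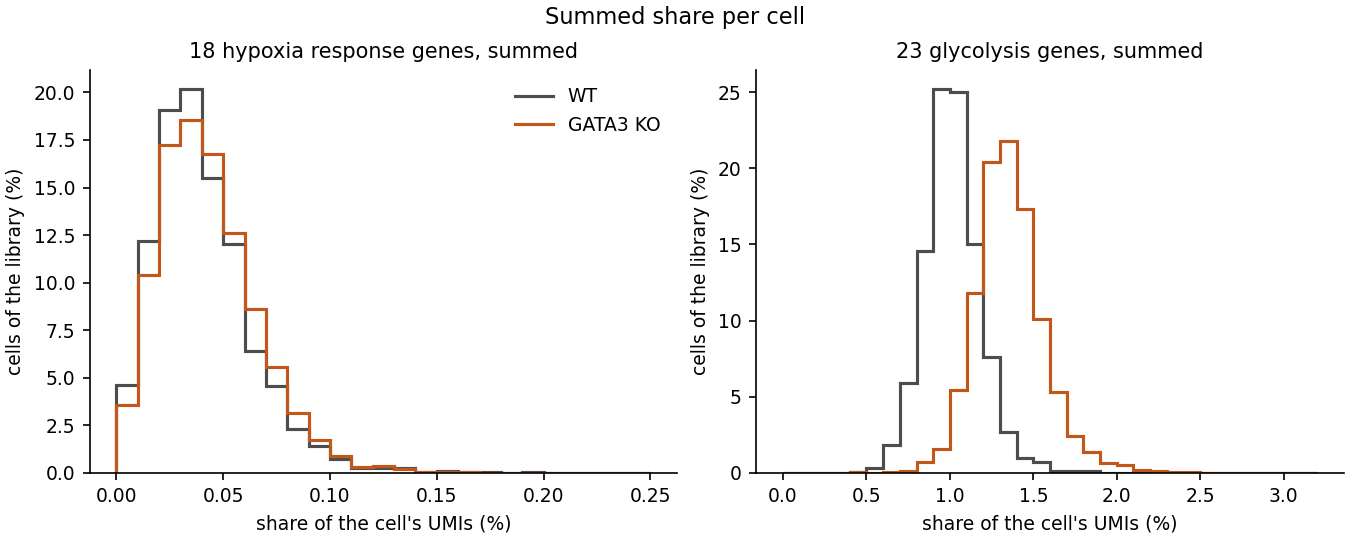
Share of each cell's UMIs held by the 18 hypoxia response genes (left) and the 23 glycolysis genes (right), as the percentage of cells of the WT (grey) and GATA3 KO (orange) libraries per bin, after thinning to 10000 UMIs. The hypoxia shares overlap almost fully, while the glycolysis shares centre on 1.00% in WT and 1.34% in GATA3 KO.

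ADM was detected in 14.8% of thinned WT cells (13.3 to 16.4) and 45.1% of thinned GATA3 KO cells (43.6 to 46.7), and in 33.1% and 70.7% of all kept cells without thinning, at median depths of 44415 and 43131.5 UMIs. No cell type known to lack ADM was defined here to set beside these shares. The lowest share in any state of cells, defined below, was 8.23%, in WT cells. In barcodes under 2000 UMIs, where RNA from the medium weighs most, ADM was at 62.5 CPM in WT (8 UMIs, 27.0 to 123) and 78.9 CPM in GATA3 KO (15 UMIs, 44.2 to 130). The part of free RNA in the WT level of ADM was not tested. Between cells, ADM counts had a variance of 1.29 times the mean in WT and 1.74 times in GATA3 KO, where 1 is counting noise alone. SLC2A3 had 2.49 and 2.13, GAPDH 2.96 and 2.77, and DDIT4 1.90 and 1.43. At a like relative spread between cells this measure rises with the mean count, so it does not rank genes or libraries of unlike level. The means per thinned cell were 0.184 UMIs in WT and 0.816 in GATA3 KO for ADM, and 37.2 and 61.8 for GAPDH.

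Whether ADM went with the other hypoxia genes was asked within each library, by ranking the thinned cells on the summed count of the other 17 hypoxia genes and comparing ADM from the lowest to the highest of 4 equal groups of cells. No difference was detectable in either library. In WT, ADM was at 18.4, 18.05, 18.05 and 19.0 CPM from the lowest to the highest group (log2 ratio of highest over lowest 0.04, -0.37 to 0.46). In GATA3 KO it was at 85.6, 78.8, 83.7 and 78.4 CPM (-0.13, -0.27 to 0.01). The WT ratio was unsteady, at 0.51 without the cells of highest doublet score and -0.31 with cells thinned to 20000 UMIs. Cell depth and mitochondrial share hardly differed between the groups, with medians of 46533 to 47882 UMIs in WT and 44334.5 to 45570 in GATA3 KO.

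The ranking itself was a weak one, since a thinned cell held few UMIs of these genes (a mean of 1.02 in the lowest group and 6.39 in the highest in WT, 0.82 and 5.67 in GATA3 KO). Each of the other hypoxia genes was therefore compared in the same way, left out of its own ranking. Of the 6 hypoxia genes past 20 CPM in WT cells, 1 (DDIT4) was at least 1.5-fold higher in the highest group and none lower, and of 6 in GATA3 KO cells none was called. Among genes other than the hypoxia genes, 1.26% were called higher and 0.862% lower in WT, and 0.0389% and 0.389% in GATA3 KO. None of the glycolysis genes past 20 CPM, 16 in WT and 18 in GATA3 KO, was called in either library, with log2 ratios of -0.31 to 0.45 in WT and -0.07 to 0.54 in GATA3 KO.

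To use the full depth, the same ranking was made on cells that were not thinned, by the share of the other 17 genes, which was chosen after the thinned values were seen. Of the 6 hypoxia genes past 20 CPM in each library, 1 in WT (DDIT4) and 0 in GATA3 KO were called higher, and none lower. Of the other genes 2.13% were called higher and 2.05% lower in WT, and 0.214% and 0.699% in GATA3 KO. DDIT4 was at 18.5 CPM in the lowest and 46.2 CPM in the highest group (2.501-fold, 2.23 to 2.80), STC1 at 4.46 and 12.0 CPM (2.69-fold, 2.14 to 3.40) and ANKRD37 at 2.18 and 4.97 CPM (2.28-fold, 1.62 to 3.23), the last 2 under 20 CPM. VEGFA followed in WT at 1.69-fold, and EGLN1, KDM3A and BNIP3 had ratios of 1.48 to 1.57, BNIP3 alone of these 4 being past 20 CPM. ADM was at 16.9 and 19.1 CPM (1.13-fold, 0.982 to 1.29), next to AK4 (1.03-fold), PDK1 (1.01-fold) and P4HA1 (0.932-fold) among the genes whose intervals take in 1.

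In GATA3 KO the genes with the highest WT ratios had lower ones. DDIT4 was 1.26-fold (1.14 to 1.40), and VEGFA 1.39-fold (1.21 to 1.59) higher in the highest group, and STC1 was at 0.948 (0.844 to 1.06), and ADM was at 0.959 (0.915 to 1.01). EGLN3 (1.18-fold in WT and 1.22-fold in GATA3 KO), PDK1 (1.01-fold and 1.31-fold) and P4HA1 (0.932 and 1.17) had the higher ratio in GATA3 KO. AK4 was at 0.9003 in GATA3 KO (0.844 to 0.961). MXI1 had the lowest ratio of the 18 genes in both libraries, at 0.563 of its lowest-group level in WT (0.468 to 0.677) and 0.427 in GATA3 KO (0.373 to 0.488). Median depth in these rankings was 44424 to 45694 UMIs in the lowest and 44584 to 45990 in the highest group in WT, and 41700 to 42932 and 43411 to 45422 in GATA3 KO. Whether these ratios differ between the libraries was not tested. Cell state was not held constant in these rankings. In WT cells the mean share of the hypoxia genes without ADM was 0.0396% with SOX2 alone and 0.0312% with MIXL1, EOMES or TBXT, states defined below. DDIT4, STC1 and ANKRD37 were at 39.0, 11.0 and 7.09 CPM in the first of these WT states and 16.7, 3.63 and 1.94 CPM in the second. The part of cell state in these ratios was not tested.

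**Figure D3:**
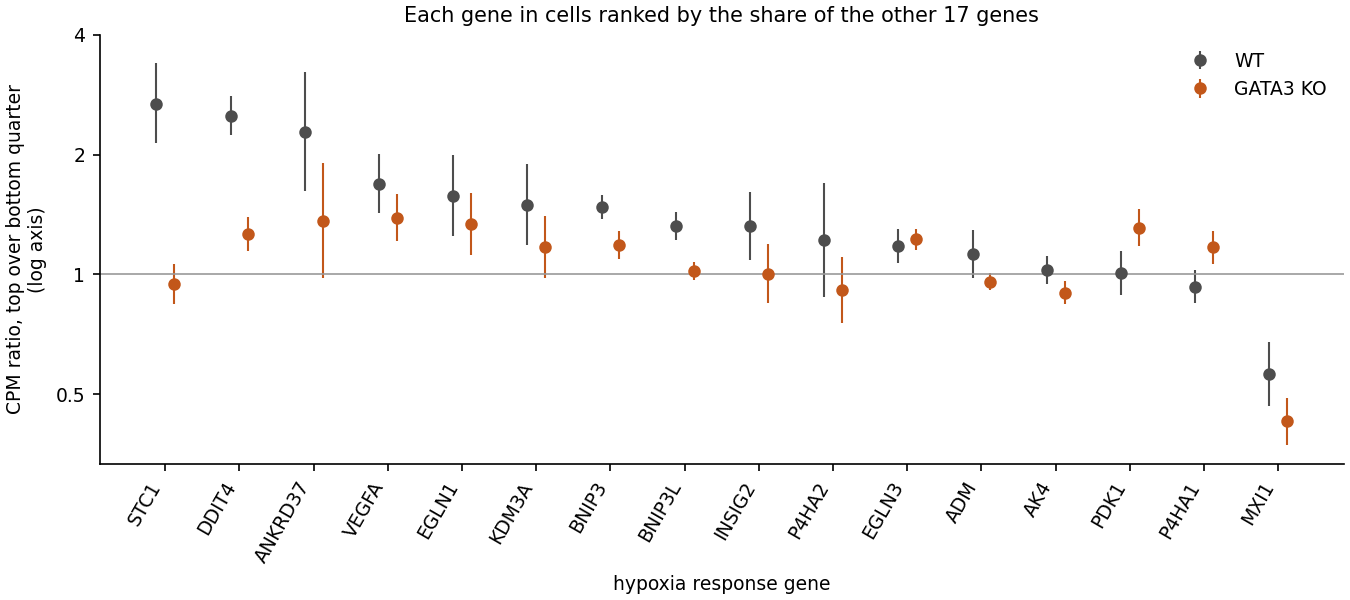
Ratio of each gene's CPM in the highest over the lowest of 4 equal groups of cells, ranked by the share of the other 17 hypoxia genes in cells that were not thinned, on a log axis, for WT (grey) and GATA3 KO (orange). Bars are 95% counting intervals, and CA9 and NDRG1, below 1 CPM, are left out. STC1, DDIT4 and ANKRD37 lie above 2 in WT, ADM lies at 1.13 and 0.959, and MXI1 lies below 1 in both libraries.

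The difference in ADM between the libraries was also there at like levels of the other hypoxia genes. In cells with 0 to 1, 2 to 3, 4 to 5 and at least 6 UMIs of the other 17 genes after thinning, bounds set after the values were seen, ADM was 4.18-fold, 4.82-fold, 4.70-fold and 3.56-fold higher in GATA3 KO, at 20.6, 16.9, 16.9 and 22.1 CPM in WT and 86.1, 81.3, 79.4 and 78.4 CPM in GATA3 KO. ADM was flat across these bounds within each library, so this grouping could hardly move the ratio and is a description only.

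Which genes did go with ADM was read from the correlation of log counts over the thinned cells of 1 library, among genes of at least 20 CPM, 4992 in WT and, with ADM itself, 5146 in GATA3 KO. The cells share a library and the counts are sparse, so weak values are no finding. In GATA3 KO the highest were ID3 (r = 0.255) and ID1 (r = 0.254), direct targets of BMP signalling, then ZFP36L2 (0.162), CYR61, PMAIP1, CTGF, IER2, ID2, SLC38A2 and SOX4 (0.115). In WT all values were low, PODXL (0.162), APELA and PPM1B leading, TPM1, CD24, CLU, ID1 (0.119), SOX2, ID3 (0.110) and G3BP2 (0.109) following, and MIXL1, a primitive streak gene, lowest of all (-0.180). The members of at least 20 CPM, 22 in WT and 23 in GATA3 KO, had r between -0.07 and 0.07 in both libraries. EGLN3 (place 48) was the member nearest to ADM in WT, and SLC2A1 (place 42) in GATA3 KO.

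The ID genes and the YAP target genes CYR61 and CTGF were then used as rankings, since these are among the highest in the GATA3 KO list above. The values describe that list further and do not test it. In the WT list ID1 and ID3 were named, but CYR61 and CTGF were not. By ID1 and ID3 together, ADM was at 10.1, 15.7, 20.8 and 26.9 CPM in WT (2.66-fold, 1.94 to 3.70) and 42.6, 64.3, 97.2 and 123 CPM in GATA3 KO (2.88-fold, 2.58 to 3.22). BNIP3 ran the other way in the same cells, from 72.6 to 44.01 CPM in WT (0.606, 0.514 to 0.714). In GATA3 KO it ran from 37.3 to 15.3 CPM (0.409, 0.337 to 0.495). EGLN3 did not run that way, at 34.2 and 35.0 CPM in the lowest and highest group in WT. In GATA3 KO it rose from 39.0 to 52.8 CPM (1.35-fold, 1.19 to 1.55). By CYR61 and CTGF, ADM was at 14.9 CPM in the lowest and 25.05 CPM in the highest group in WT, and at 67.4 and 107 CPM in GATA3 KO. BNIP3 fell by this ranking too, to 0.668 of its lowest-group level in WT and 0.644 in GATA3 KO. Its fall was thus not particular to the ID ranking.

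Between the libraries, ID1 was at 466 CPM in WT and 1046 CPM in GATA3 KO and ID3 at 991 and 787 CPM, so ID1 was higher in GATA3 KO, as was ADM, and ID3 was not. Cells were also grouped by ID3, and not by ID1, at 0, 1, 2 to 3 and at least 4 UMIs after thinning. In these groups ADM was higher in GATA3 KO by 3.26-fold (1.66 to 7.30), 3.98-fold, 4.67-fold and 4.88-fold. Most cells of both libraries fell in the open group of at least 4 UMIs, so they were not closely matched. ID3 was lower in GATA3 KO, so this grouping could hardly reduce the ADM ratio and is a description only. Whether ADM differed at like levels of ID1 was not tested.

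By the 23 glycolysis genes ADM was at 18.9 CPM in the lowest and 17.1 CPM in the highest group in WT, and at 85.6 and 72.0 CPM in GATA3 KO. BNIP3, ranked the same way, was at 52.9 and 78.8 CPM in WT (1.49-fold, 1.28 to 1.73). By the ATF4 stress response genes ADM was at 18.6 and 19.3 CPM in WT and 72.4 and 92.0 CPM in GATA3 KO (1.27-fold, 1.15 to 1.40). BNIP3 fell by this ranking as well, to 0.676 of its lowest-group level in WT and 0.636 in GATA3 KO. ATF4 itself, a stress factor, was at 99.7 CPM in WT and 180 CPM in GATA3 KO. It was the 1 gene at least 1.5-fold higher among the 2 of 8 ATF4 stress genes past 20 CPM.

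**Figure D4:**
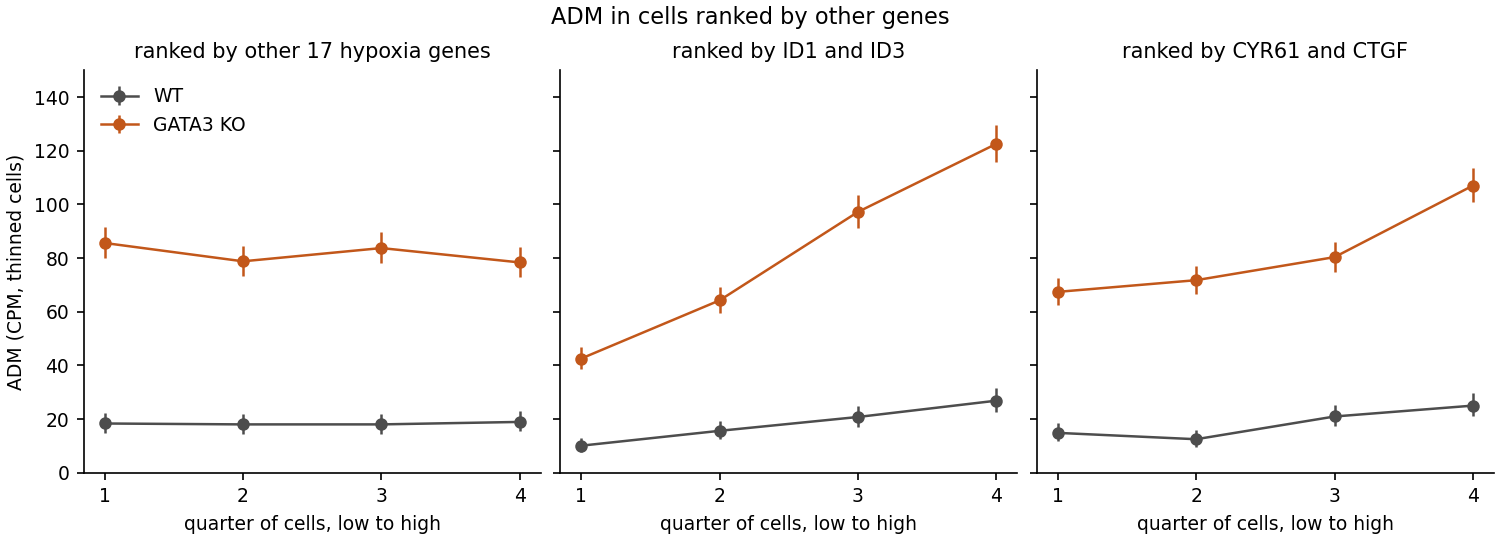
ADM in CPM (axis from 0) in 4 equal groups of thinned cells of the WT (grey) and GATA3 KO (orange) libraries, ranked from low to high by the other 17 hypoxia genes (left), by ID1 and ID3 (middle) and by CYR61 and CTGF (right), with 95% counting intervals. ADM is flat on the left, at 18.4 to 19.0 CPM in WT and 85.6 to 78.4 CPM in GATA3 KO, and climbs in the middle from 10.1 to 26.9 CPM in WT and from 42.6 to 123 CPM in GATA3 KO.

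Since the libraries differed in cell states, the members were compared within 5 gates set by marker UMIs in the thinned cells: MIXL1, EOMES or TBXT (38.0% of WT and 4.33% of GATA3 KO cells), TFAP2A, HAND1 or ISL1 (7.46% and 17.3%), both (7.69% and 1.68%), SOX2 without these (36.4% and 73.0%) and none of them (10.5% and 3.74%). ADM was higher in GATA3 KO in 5 of 5 gates. In WT it was lowest in the cells with MIXL1, EOMES or TBXT (9.56 CPM, 7.57 to 11.9) and highest in those with TFAP2A, HAND1 or ISL1 (30.9 CPM, 22.9 to 40.7). In GATA3 KO the same gates held 67.4 CPM (55.8 to 80.7) and 93.7 CPM (86.6 to 101).

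The ADM ratio was thus 7.05-fold (5.26 to 9.50) in the first of these gates and 3.04-fold (2.28 to 4.13) in the second, and 3.07-fold (2.66 to 3.55) in the cells with SOX2 without the other markers, where it was at 26.2 CPM in WT and 80.4 CPM in GATA3 KO. It was 7.64-fold (4.42 to 13.8) in the cells with both kinds of marker and 3.39-fold (2.36 to 4.93) in those with none. The ratio of the whole libraries, over all kept cells without thinning, was 4.73-fold. Ratios below this were those of the gates with TFAP2A, HAND1 or ISL1, with SOX2 alone and with none.

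BNIP3 was at least 1.5-fold lower in GATA3 KO in 5 of 5 gates, at 63.6 and 27.4 CPM with MIXL1, EOMES or TBXT and at 71.9 and 31.3 CPM with SOX2 alone. P4HA1 was lower in 5 of 5 gates and past 1.5-fold in 3. ENO1 and PKM were past 1.5-fold higher in 5 of 5 gates, ENO1 with log2 ratios of 0.82 to 0.95, and GAPDH and PFKP in 4. GPI and PFKM were higher in 5 of 5 gates and past 1.5-fold in 3. With SOX2 alone PFKP, GPI and PFKM were under the limit, at 1.38-fold, 1.39-fold and 1.35-fold. The summed glycolysis share was 0.996 to 1.06% in the 5 WT gates and 1.35 to 1.39% in the 5 GATA3 KO gates, without overlap.

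SLC2A3 and ENO2 kept less of their difference in most gates. SLC2A3 ran from 145 CPM with SOX2 alone to 451 CPM with TFAP2A, HAND1 or ISL1 in WT. In GATA3 KO it ran from 110 CPM with SOX2 alone to 335 CPM with both kinds of marker. It was lower in GATA3 KO in 3 gates, with intervals that exclude 1, and higher in 2. The higher ratios were within counting error of no difference, at 1.04-fold (0.884 to 1.21) with both kinds of marker and 1.09-fold (0.943 to 1.26) with none. ENO2 was higher in 5 of 5 gates but past 1.5-fold in 0, with log2 ratios of 0.09 to 0.41, against 0.66 in the whole libraries. ALDOA was past 1.5-fold in 1 gate of 5, that with SOX2 alone, at 1.57-fold (1.28 to 1.94). In the other gates its intervals were wide and took in 1, so a loss of its difference within gates is not shown.

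Among the hypoxia genes that were not called, some differed by gate. DDIT4 with SOX2 alone was at 39.0 CPM in WT and 20.4 CPM in GATA3 KO, while with MIXL1, EOMES or TBXT it was at 16.7 and 19.4 CPM. EGLN3 was at 44.4 and 43.9 CPM with SOX2 alone and at 23.5 and 47.4 CPM with MIXL1, EOMES or TBXT. AK4 was at 13.6 and 16.5 CPM with TFAP2A, HAND1 or ISL1, its lowest level in both libraries, against 62.3 and 51.7 CPM with SOX2 alone. STC1 was highest with SOX2 alone in both, at 11.0 CPM in WT and 17.5 CPM in GATA3 KO. Of the lactate genes, SLC16A3 was lower in GATA3 KO with SOX2 alone, at 2.53 and 1.12 CPM (0.442 of WT, 0.246 to 0.813). With TFAP2A, HAND1 or ISL1 it was higher, at 4.32 and 16.9 CPM (3.92-fold, 1.84 to 9.96), and it was higher in the remaining gates too.

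**Figure D5:**
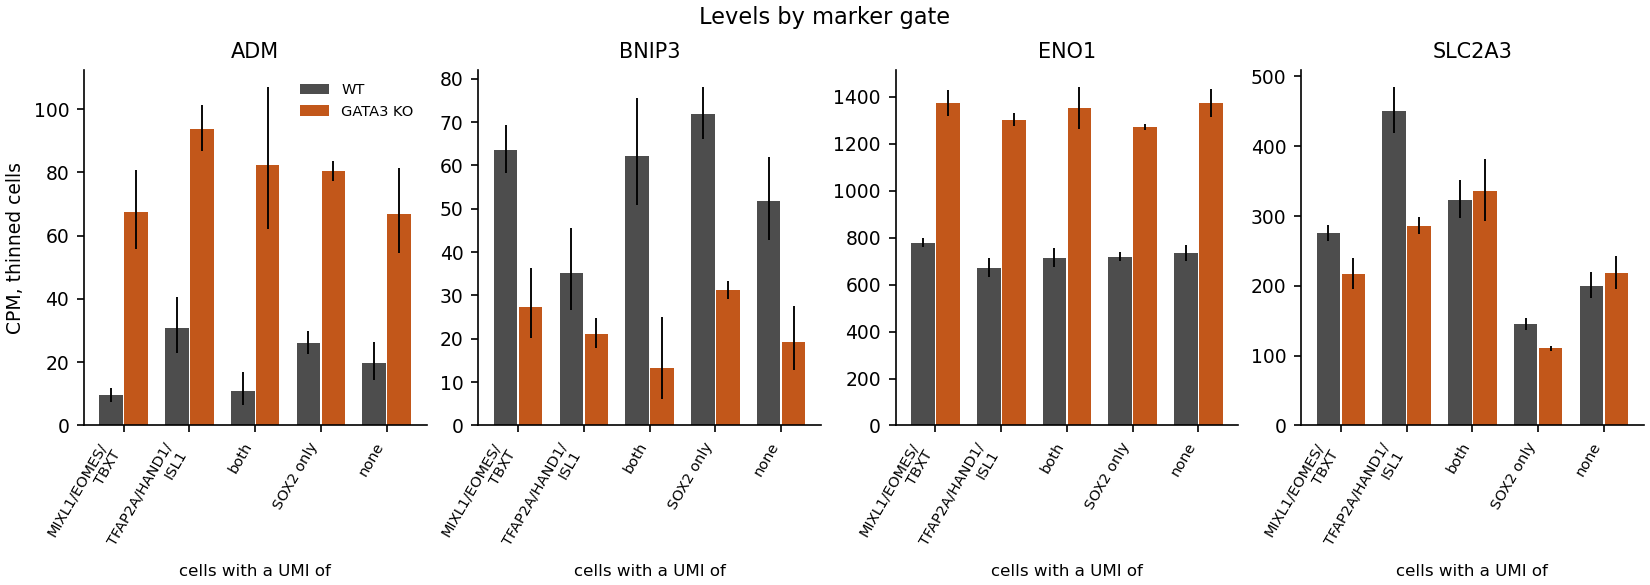
ADM, BNIP3, ENO1 and SLC2A3 in CPM (axes from 0) in 5 gates of thinned cells set by marker UMIs, in WT (grey) and GATA3 KO (orange), with 95% counting intervals. ADM and ENO1 are higher and BNIP3 lower in GATA3 KO in all 5 gates, whereas SLC2A3 differs more between gates, from 145 to 451 CPM in WT, than between the libraries.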

How the data were processed

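Single-cell RNA-seq was analysed for 1 WT and 1 GATA3 KO library of hESCs given BMP4. The authors aligned the reads of 10x Chromium 3′ v3 libraries to the GRCh38-3.0.0 transcriptome with Cell Ranger 3.0.2 and deposited UMI counts per gene and cell, not normalized. These counts were summed over the cells within the study's limits, scaled to counts per 1000000 of the library (CPM) and compared as log2 of CPM plus a pseudocount of 1, with a call at 1.5-fold where the larger of both CPM values was 20 or more. No test was possible with 1 library per group. Intervals are exact Poisson or Clopper-Pearson 95% intervals, and the interval of a ratio is the exact binomial interval of its 2 counts, without the pseudocount. They cover counting error only. Depth was 99587274 and 175285931 UMIs in kept cells, so that counting error was small for the sums and large for single cells.

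For comparisons between cells, each kept cell of at least 10000 UMIs was thinned to 10000 without replacement (seed 42), and cells were ranked with ties broken at random. Scrublet, run through scanpy 1.11.5, called 1 and 2 doublets, too few to have worked, so doublets were not removed. Removing the 57 and 171 kept cells with the highest scores, at 0.8% per 1000 cells, was an alternative. TMM factors came from edgeR 4.0.16 in R 4.3.3, and the rest from numpy 2.4.6, scipy 1.17.1 and pandas 2.3.3 in Python 3.11.15. The calls, intervals, thinning and ranking were tested on simulated data. Gene positions are from GENCODE on GRCh38, and promoters from RefSeq (GRCh38.p14), which lists 35 of the 41 genes by symbol.

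The 41 genes, the pathway and marker lists and the comparisons were chosen with earlier results of these data known. All members past 1.5-fold at 20 CPM, ADM, and the highest and lowest of each role were given with their values, and the other members by range or in brief. Beside these, the 10 genes nearest to ADM in each library were named. Alternatives covered the limits on cells, doublets, scaling, pseudocount, minimum level, thinning and score. One gene of these lists is not reported here.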

Additional observations from a re-analysis of the deposited data

How the results depend on the processing

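ADM kept its direction and its call in all 10 alternatives run for it. The count of members at least 1.5-fold higher was 6 to 11 and that of members lower 3 throughout. ADM had a log2 ratio of 2.18, against 2.01 over all deposited cells, 2.02 with the mitochondrial limit only, 2.17 with TMM scaling, 2.16 with median-of-ratios size factors and 2.11 as a mean over cells. The log2 ratio of the glycolysis share (0.42) was 0.46 over all deposited cells, 0.46 with the mitochondrial limit only, 0.40 with TMM scaling, 0.40 with median-of-ratios size factors, 0.41 with mitochondrial genes left out of the totals, 0.42 as a mean over cells and, chosen after seeing the data, 0.20 without GAPDH. That of the hypoxia share (0.09) was 0.071 with median-of-ratios size factors and, chosen after seeing the data, -0.19 without ADM. The ratio of ADM between the highest and lowest groups of cells by the other hypoxia genes, which was within counting error of 0 in both libraries, was 0.51 in WT without the cells of highest Scrublet score and 0.055 in GATA3 KO over all deposited cells. In WT it was -0.31 with cells thinned to 20000 UMIs and 0.16 without thinning, so that its sign is not settled. GPI, PFKM and ENO2 were under 1.5-fold over all deposited cells. The cause of these shifts was not tested. No paired analysis was possible because each group has 1 library. CA9 and NDRG1, under 1 CPM, could not be compared between groups of cells at this depth.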
